A study of Rattus norvegicus with 15 samples.

Results

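The nuclear genes of the mitochondrial respiratory chain were measured in rat striatum. They were taken by name from the microarray's annotation: symbols starting with Nduf (complex I and its assembly factors), Sdha to Sdhd (complex II), Uqcr (complex III), Cox4 to Cox8 (complex IV) and Atp5 (ATP synthase). Among 36685 transcripts on the array, 18511 carried 1 gene symbol, and 106 of these matched the rule. Where a symbol had several transcripts the brightest by its mean over 15 arrays was kept, which left 100 genes: 40 of complex I, 9 complex I assembly factors, 4 of complex II, 9 of complex III, 18 of complex IV and 20 of ATP synthase. Complexes were assigned by the start of the symbol alone, which need not match where a protein sits. Ndufa4 and its paralogue Ndufa4l2 were counted under complex I for this reason.

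The respiratory chain sits in the inner mitochondrial membrane. Complexes I and II pass electrons from NADH and succinate to ubiquinone, complex III hands them to cytochrome c, complex IV reduces oxygen, and ATP synthase uses the resulting proton gradient to make ATP. Neurons depend heavily on this supply, and complex I has long been studied in Parkinson's disease because inhibitors of it injure dopamine neurons.

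The arrays measured the lesioned-side striatum of male Sprague-Dawley rats, 7 weeks old at the start, in 5 groups of 3 rats. Normal rats had a sham operation. PD rats had a unilateral 6-OHDA lesion of the nigrostriatal pathway, which removes the dopamine input, and were kept after an apomorphine turning test. LID rats had the same lesion and daily L-DOPA with benserazide for 3 weeks, with abnormal involuntary movements. Rats of all 3 L-DOPA groups were chosen for complete dyskinesia. The methods time tissue collection at hours after the last L-DOPA dose. LID + Vehicle and LID + PD98059 rats had the lesion, L-DOPA and, for 12 days from day 10 of L-DOPA, infusions into the lateral ventricle of vehicle (DMSO and Tween80 in saline) or of PD98059, an inhibitor of the kinase MEK, through an implanted cannula. A 6-OHDA lesion is a toxin model, the infused groups also differ from LID by the cannula, and striatal tissue holds neurons and glia together, so fewer cells of a type and less RNA per cell cannot be told apart.

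Levels are deposited log2 RMA values, in which 1 unit is a doubling of signal. A level of 5.85, the 95th percentile of 70 olfactory receptor transcripts not used in striatum, was taken as the dim level: 83 of the 100 genes had a 15-array mean above it and 17 lay below. A gene was said to pass when its limma fit gave a Benjamini-Hochberg adjusted p under 0.05 over all transcripts with a fold change of at least 1.2 (0.26 log2). Levels of different genes were not set against each other, because probes differ in brightness.

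The tissue label held: 8 of 8 measured markers of striatal projection neurons were above the dim level, with a mean between 9.36 and 10.44 on the 15 arrays. Markers of cortical neurons varied much more. Their mean over 6 genes was 8.37 to 8.81 on the Normal arrays, 7.72 to 8.24 on the PD arrays and 6.53 to 7.88 on the 9 arrays of L-DOPA rats, and the level of Slc17a7, the vesicular glutamate transporter of cortical neurons, ran from 6.55 to 10.62. Microglial markers ranged from 7.56 to 9.69. Of skeletal muscle markers 2 of 3, and of choroid plexus markers 1 of 4, lay above the dim level. The part of these differences in the results below was not tested.

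None of the 100 genes passed in any of the 5 comparisons. The share of all transcripts that passed was 0% for PD against Normal, 0.00545% for LID against PD, 0% for LID + Vehicle against LID, 0% for LID + PD98059 against LID + Vehicle and 0.0164% for the mean of the 3 L-DOPA groups against PD, so the test called little anywhere. Before adjustment, a p under 0.05 beside that fold was met by 0 genes higher in PD than in Normal (2.36% of all transcripts) and 1 lower (1.95%). In LID against PD it was met by 3 higher (3.48%) and 0 lower (4.69%). In LID + Vehicle against LID it was met by 0 higher (1.85%) and 1 lower (1.82%). In LID + PD98059 against LID + Vehicle it was met by 1 higher (2.33%) and 1 lower (2.12%), and in the joined L-DOPA comparison by 1 higher (3.83%) and 0 lower (5.23%). Over 100 genes, no count went above its background share. Most of the genes counted here lay under the dim level. Of the 83 genes above it, 1 was higher in LID against PD (5% of all transcripts above the dim level). In LID + PD98059 against LID + Vehicle 1 was higher (1.58%), and none met these limits in the other comparisons or in the lower direction.

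The respiratory chain genes held narrow levels. Over the 83 genes above the dim level the median SD among the 3 arrays of a group was 0.124 log2, against 0.175 for all 16972 transcripts above it. The difference was also present at like brightness: between levels of 7.50 and 9.45, the middle range of the chain genes, the median SD was 0.115 for 41 chain genes and 0.156 for all 6340 transcripts. It was not tested whether this is particular to the chain. The steadiest was Cox4i1, the common form of complex IV subunit 4, with an SD of 0.049, followed by the complex I flavoprotein Ndufv1 with 0.064. The least steady were Ndufb4l4, named as a copy of Ndufb4, with 0.359 and Uqcrb, a complex III subunit, with 0.285. Across all 15 arrays 81 of the 83 stayed within a range of 1 log2 unit.

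The narrow spread bounded the size of any change. In LID against PD, the 95% interval of the fold change lay within 1.5-fold in either direction for 77 of 83 chain genes, against 66.5% of all transcripts above the dim level. It did so for 79 in PD against Normal (73.1%), for 81 in LID + Vehicle against LID (74.5%), for 78 in LID + PD98059 against LID + Vehicle (72.4%) and for 82 in the joined comparison (75.4%). The same held for 15 of 15 citric acid cycle and pyruvate dehydrogenase genes in each comparison and for 29 to 32 of 32 carriers and assembly factors outside the naming rule. Ndufb4l4 was among the exceptions in each comparison, and others such as Ndufa2, Uqcrb, Cox6a2 and Ndufa4l2 in some of them.

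**Figure D1:**
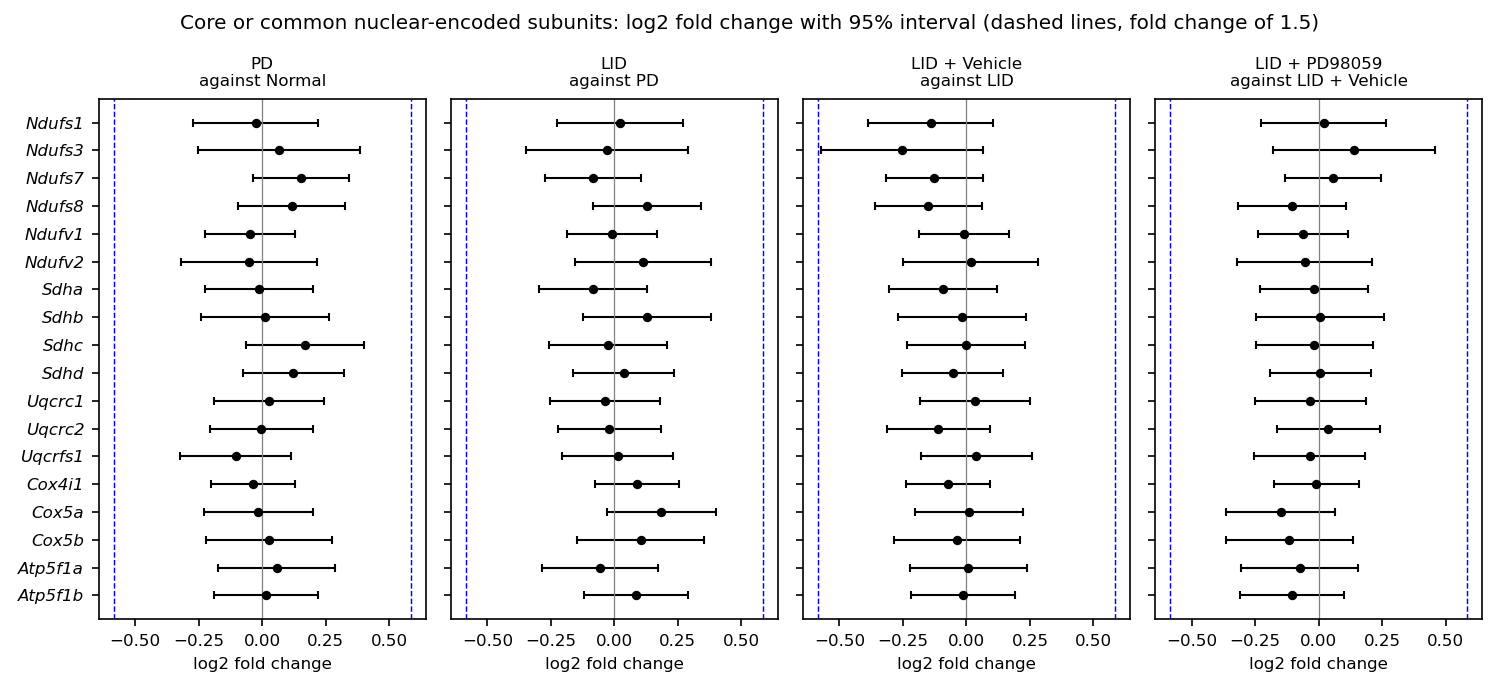
Log2 fold change (x axis) with its 95% interval for 18 core or common nuclear-encoded subunits (y axis) in 4 comparisons of 3 arrays against 3. Dashed lines mark a fold change of 1.5, and all 72 intervals lie between them.

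Values of 4 conserved or common subunits follow. In complex I, the iron-sulfur subunit Ndufs1 stood at 8.98, 9.01 and 9.26 on the Normal arrays, 9.08, 9.13 and 8.97 in PD, 9.02, 9.24 and 8.99 in LID, 8.75, 9.04 and 9.03 in LID + Vehicle and 9.04, 8.88 and 8.96 in LID + PD98059. All 5 groups overlapped. Sdha, the flavoprotein of succinate dehydrogenase, measured 9.97, 9.82 and 9.91 in Normal, 9.84, 9.99 and 9.84 in PD, 9.68, 9.97 and 9.77 in LID, 9.63, 9.81 and 9.70 in LID + Vehicle and 9.77, 9.64 and 9.67 in LID + PD98059. The arrays with L-DOPA sat slightly lower on average, by 0.15 (95% interval -0.32 to 0.02, limma adjusted p = 0.5), with overlap. Cox4i1, a nuclear-encoded subunit of complex IV outside its catalytic core, lay between 9.96 and 10.13 on every array, and its log2 fold change in LID against PD was 0.09 (interval -0.08 to 0.26). Atp5f1b, the catalytic beta subunit of ATP synthase, changed by 0.09 in LID against PD (interval -0.12 to 0.29) and by -0.10 with PD98059 against vehicle (interval -0.31 to 0.10).

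Although no single gene passed, chain genes tended to deviate together on an array. The mean level of the 83 genes was 8.49 ± 0.063 in Normal, 8.52 ± 0.053 in PD, 8.58 ± 0.045 in LID, 8.53 ± 0.065 in LID + Vehicle and 8.51 ± 0.073 in LID + PD98059 (SD, n = 3 arrays each). LID replicate 2 was the highest array at 8.63: only 13 of the 83 genes lay under their own 15-array mean there. Normal replicate 2 at 8.43 and LID + PD98059 replicate 2 at 8.43 were the lowest, with 70 and 73 genes under their mean. How many of all transcripts lay under their mean on these arrays was not counted, so this is not shown to be particular to the chain. Marker lists did not follow these arrays in a single way. Normal replicate 2 had the lowest projection neuron mean (9.36) but a general neuron mean of 10.26, below that of Normal replicate 3 alone (10.63), whereas LID + PD98059 replicate 2 had the lowest general neuron mean (9.73) and a projection neuron mean of 9.99, inside the range. LID replicate 2 had a projection neuron mean of 10.39, with 2 arrays above it, and microglial markers at 7.86, low among the L-DOPA arrays but within the Normal and PD range. The part of cell make-up in the shared deviation was not tested.

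**Figure D2:**
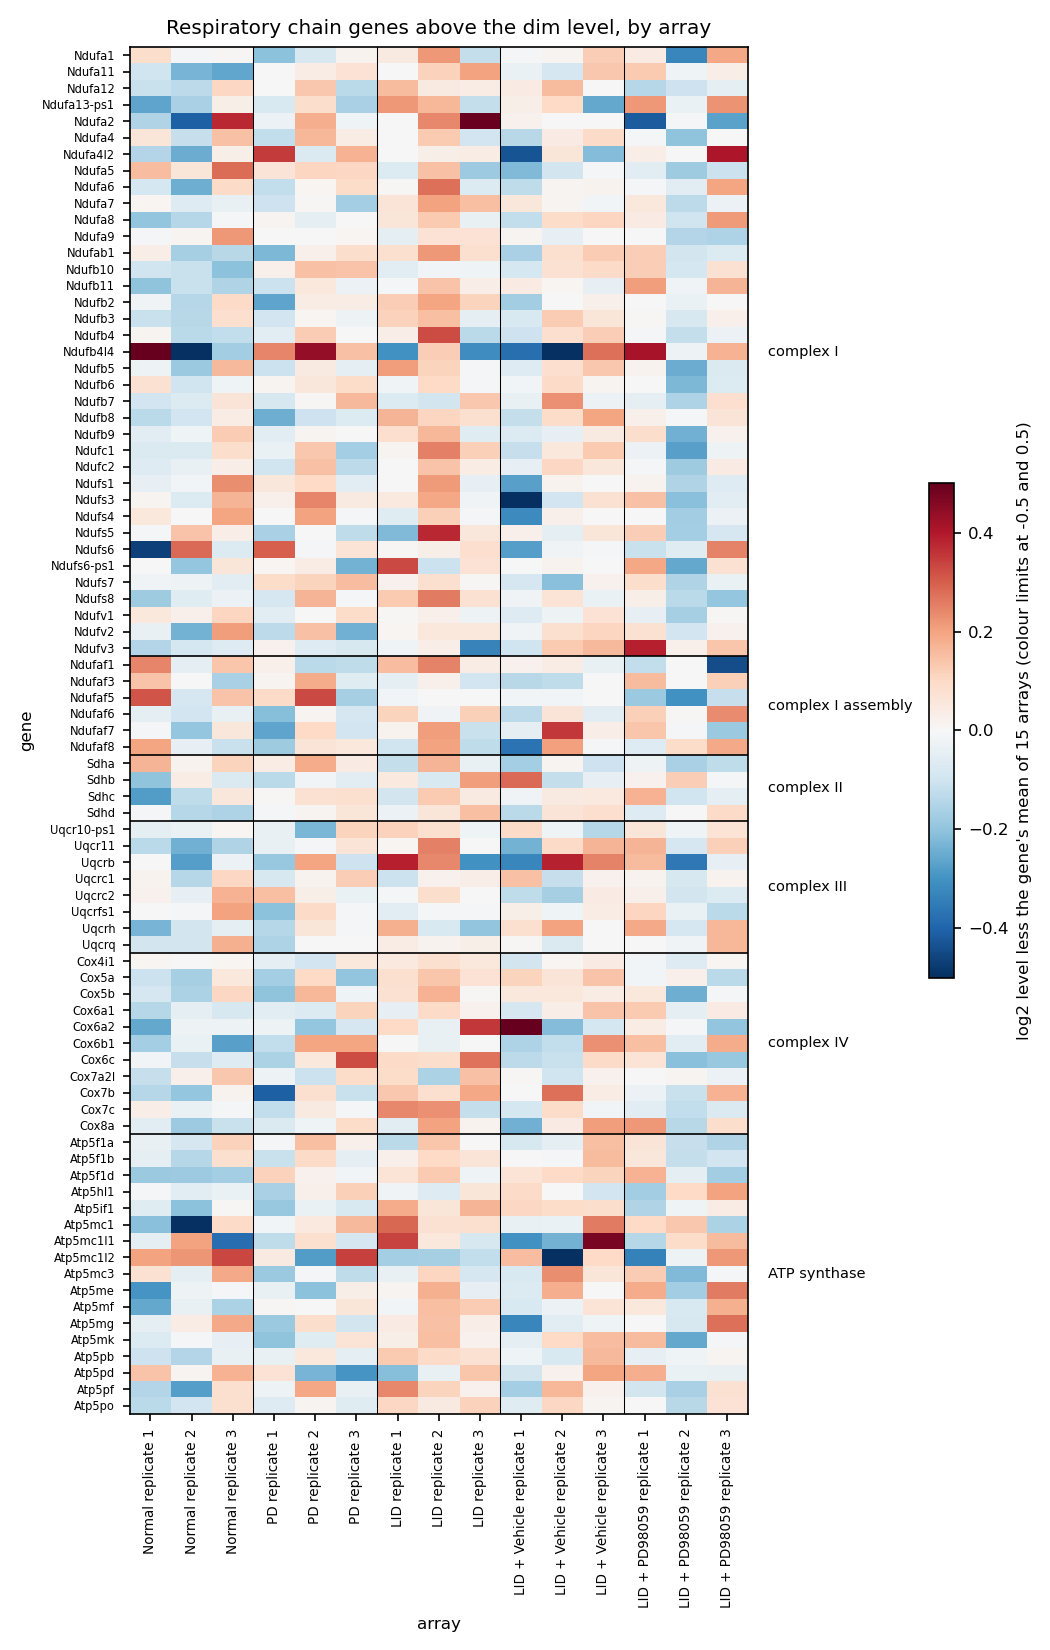
Level of each of the 83 genes above the dim level (rows, ordered by complex) on each of the 15 arrays (columns), as log2 level less the gene's mean of 15 arrays, with colours limited at -0.5 and 0.5. The mostly blue columns of Normal replicate 2 and LID + PD98059 replicate 2 (70 and 73 of 83 genes under their mean) and the mostly red column of LID replicate 2 (13 under) show that the arrays differed within groups. The share of all transcripts under their mean on these arrays was not counted.

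In PD against Normal, which asks what the lesion did, the median log2 fold change was 0.02, with 45 genes higher and 38 lower (52.2% of all transcripts above the dim level were higher) and a range from -0.26 to 0.37. In 7 of the 83 all PD arrays lay above all Normal arrays, or 8.4%, near the 7.22% of all transcripts above the dim level, and in none did they lie below (5.19%). Ndufb10, an accessory subunit of complex I, measured 8.07, 8.06 and 7.96 in Normal and 8.19, 8.32 and 8.31 in PD, a difference of 0.24 (interval 0.05 to 0.44, limma unadjusted p = 0.0166, adjusted p = 1). The groups did not overlap. Another accessory subunit of complex I, Ndufa11, behaved alike, at 8.34, 8.21 and 8.18 against 8.44, 8.48 and 8.52 (difference 0.23, interval 0.04 to 0.43). Oligodendrocyte markers averaged 9.93 to 10.29 in Normal and 10.41 to 10.55 in PD, and pericyte markers 7.81 to 7.86 and 7.90 to 8.20. Cortical neuron markers were lower in PD without overlap, and the means of the other marker lists overlapped. The part of cell make-up in this comparison was not tested.

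Atp5f1d, the delta subunit of ATP synthase, was very even in Normal (10.01, 10.02 and 10.03) and lay higher in PD (10.31, 10.22 and 10.19; difference 0.22, limma unadjusted p = 0.0369, adjusted p = 1). The L-DOPA arrays measured 10.02 to 10.37, and 1 of them, LID + PD98059 replicate 3, lay in the Normal range. Atp5pd, a peripheral stalk subunit, was the lowest relative to Normal at -0.26 (interval -0.54 to 0.01). Atp5mc1, a c-ring gene, had the largest positive difference, 0.37, but this rested on a low value of 7.42 in Normal replicate 2, with 8.30 in Normal replicate 3. Cox6b1, a complex IV subunit, differed by 0.25 on its brightest transcript, and no fold is given for a second transcript with a mean of 3.03, under the dim level.

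LID against PD sets dyskinetic rats on chronic L-DOPA with benserazide against untreated lesioned rats. Repeated dosing, the last dose, benserazide and selection for dyskinesia cannot be told apart in it. The chain as a whole leaned upward, with 59 of the 83 genes higher, 24 lower and a median of 0.08 log2. Of all transcripts above the dim level 49% were higher. Over all 100 genes 68 were higher with a median of 0.08. The genes are not independent, since they move together on an array, so no test was made of this share. The lean was greatest in complex IV (10 of 11 genes higher, median 0.09) and ATP synthase (14 of 17, median 0.10), and smaller in complex I (24 of 37, median 0.08), complex III (5 of 8) and complex II (2 of 4). Related lists did not lean this way. Of the 3 mitochondrially encoded complex IV subunits measured 1 was higher and 2 lower (median -0.02). These are 3 of 13 listed and lie near the highest value on any array (13.8), which limits what they show here. Of 32 carriers and assembly factors 17 were higher (median 0.01), and of 15 citric acid cycle genes 6 were higher (median -0.01).

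For complex IV the mean over 11 genes was 9.22 ± 0.011 in LID, with the 3 arrays between 9.21 and 9.23, and 9.11 ± 0.091 in PD, between 9.01 and 9.18. For ATP synthase it was 8.76 ± 0.021 in LID and 8.69 ± 0.036 in PD, again without overlap. The other complexes overlapped, and how often means of other gene sets separate in this way was not counted. Of single genes, 0 of 11 in complex IV and 3 of 17 in ATP synthase were higher without overlap (8.9% of all transcripts above the dim level). The arrays of LID + Vehicle (complex IV 9.14 to 9.21) and LID + PD98059 (9.05 to 9.19) overlapped those of PD, and the difference between LID and these groups, which also had L-DOPA, was not tested for a complex. PD replicate 1 was the low array of its group, and without it the median over all 100 genes was 0.04 in place of 0.08. The mean of 5 astrocyte markers was also higher in LID (10.95 to 11.22) than in PD (10.84 to 10.88). Gfap, which rises in reactive astrocytes, carried most of that difference (group means 11.55 and 10.40), while Slc1a2, the main astrocyte glutamate transporter, was at 11.83 in LID and 11.98 in PD. Their part in the lean was not tested.

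**Figure D3:**
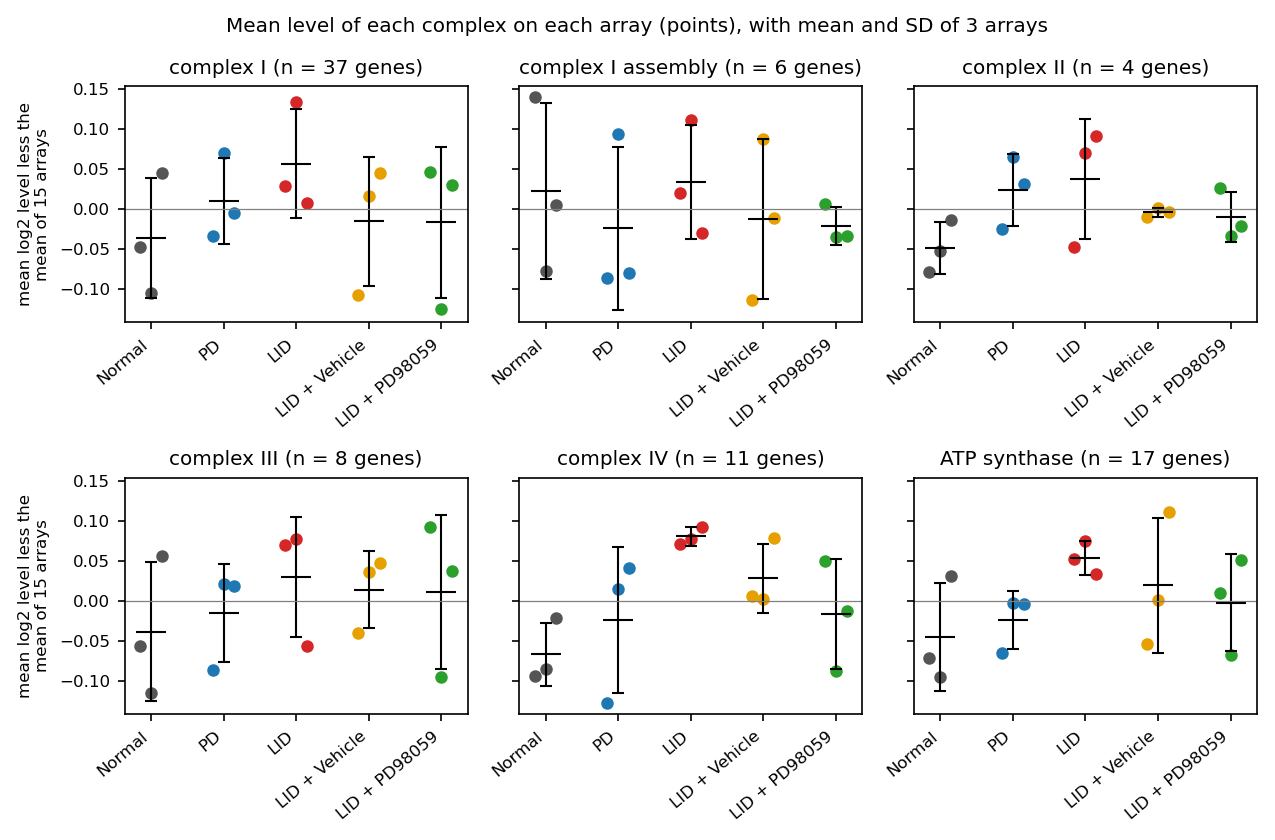
Mean log2 level of the genes of each complex on each array, less the mean of 15 arrays (y axis), by group (x axis); points are arrays, and bars give the mean and SD of 3 arrays. The LID points of complex IV (9.21 to 9.23 before subtraction) and of ATP synthase lie above all PD points, while in the other complexes the groups overlap.

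Among single genes in LID against PD, Ndufb8, an accessory complex I subunit, measured 7.95, 8.09 and 8.13 in PD and 8.36, 8.30 and 8.27 in LID, a difference of 0.26 (interval 0.05 to 0.47, limma unadjusted p = 0.0199, adjusted p = 0.497). The groups did not overlap. In LID + Vehicle it measured 8.07, 8.29 and 8.39 and in LID + PD98059 8.22, 8.18 and 8.26, so 8 of the 9 L-DOPA arrays were above every PD array. The joined difference was 0.21 (interval 0.03 to 0.38, limma unadjusted p = 0.0224, adjusted p = 0.36).

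Ndufa7, also of complex I, was at 8.05, 8.16 and 7.99 in PD and 8.22, 8.36 and 8.31 in LID (difference 0.23, limma unadjusted p = 0.0175, adjusted p = 0.497), and at 8.14 to 8.21 with vehicle. Atp5if1, the inhibitory factor that keeps ATP synthase from running in reverse, rested at 9.48, 9.63 and 9.59 in PD and 9.85, 9.73 and 9.83 in LID (difference 0.24, limma unadjusted p = 0.0195, adjusted p = 0.497). Its LID + Vehicle values of 9.77, 9.76 and 9.75 lay in the LID range, and those of LID + PD98059, at 9.51, 9.64 and 9.70, below all of them (difference from vehicle -0.14, interval -0.33 to 0.05). Cox7b, a small subunit of complex IV, differed by 0.28 (limma unadjusted p = 0.0492), with 9.15, 9.64 and 9.45 in PD and 9.70, 9.64 and 9.76 in LID.

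Of the 83 genes, 8 were above PD in all LID arrays without overlap, or 9.6% (8.9% of all transcripts above the dim level), and 3 were below (10.4%). The latter were Ndufs7, Ndufb10 and Ndufb4l4. Ndufs7, the subunit that passes electrons to ubiquinone, was also the single gene with no overlap between PD and the 9 L-DOPA arrays. It measured 8.96, 8.97 and 9.02 in PD and at most 8.95 under L-DOPA. The joined difference was -0.15 (interval -0.30 to 0.01, limma adjusted p = 0.458). Its Normal arrays, at 8.84, 8.84 and 8.81, also lay below every PD array. Ndufb10 was likewise lower in Normal than in PD. In the joined comparison 3.26% of all transcripts above the dim level were lower and 2.18% higher without overlap, and of the 83 chain genes 55 were higher at any size (46.1% of those transcripts), with a median of 0.04.

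**Figure D4:**
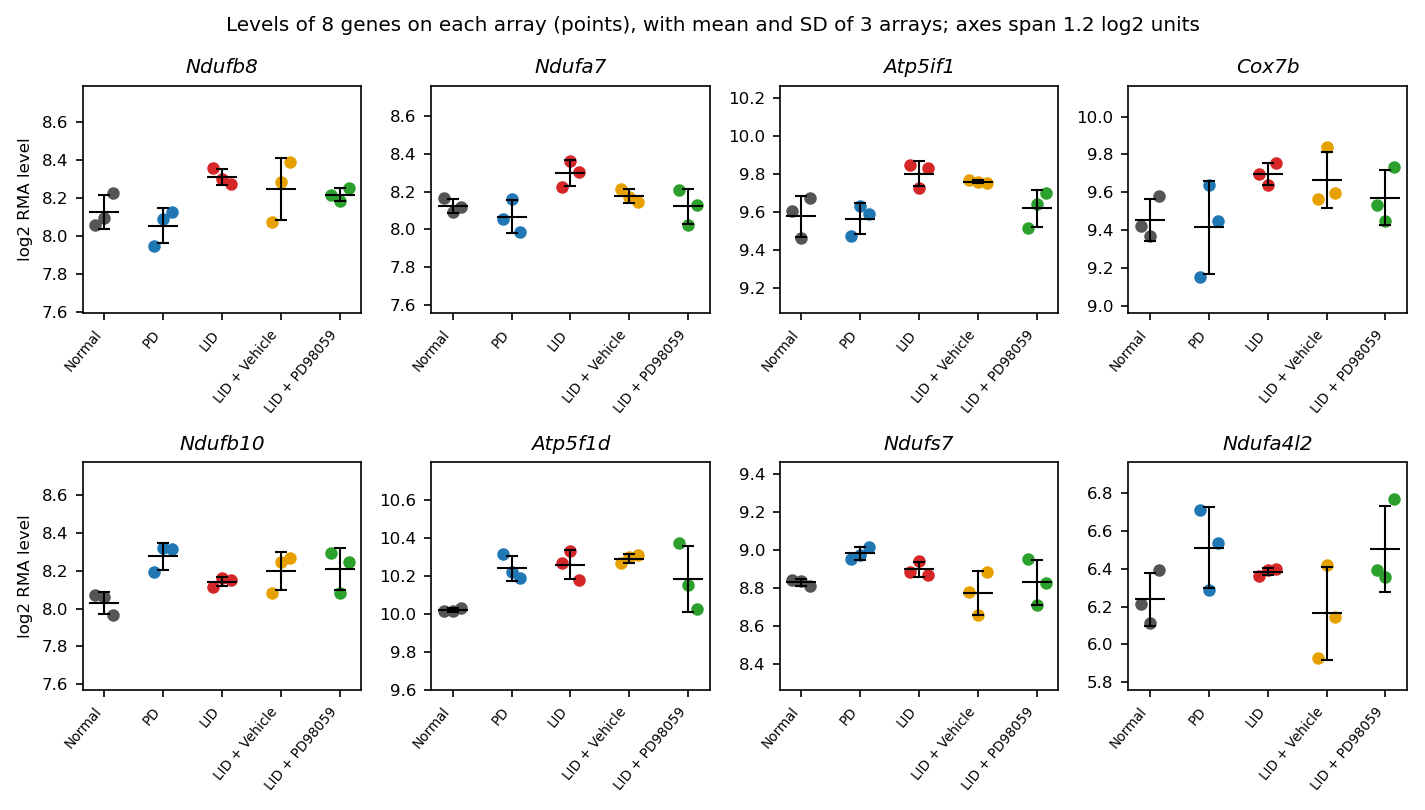
Log2 RMA level (y axis, 1.2 log2 units in each panel) of 8 genes on each array, by group (x axis); points are arrays, and bars give the mean and SD of 3 arrays. Ndufb8, Ndufa7 and Atp5if1 separate LID from PD, and Ndufb10 and Atp5f1d separate PD from Normal, by 0.22 to 0.26 log2, with no adjusted p under 0.05.

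In LID + Vehicle against LID, which tests infusion and cannula, the lean was downward. This comparison shares the 3 LID arrays with LID against PD, so the upward and downward leans are not independent. The mean over the 83 genes was 8.58 in LID, against 8.52 in PD, 8.53 in LID + Vehicle and 8.51 in LID + PD98059. Of the 83 genes 65 were lower and 18 higher, with a median of -0.05, and 44.7% of all transcripts above the dim level were higher. Complex I accounted for 32 of the 65. No chain gene was above LID on all vehicle arrays (3.13% of all transcripts above the dim level), and 7 were below, or 8.4% (4.19%): Ndufb2, Ndufa7, Ndufs8, Ndufs6, Atp5mg, Cox4i1 and Uqcrq. Ndufb2, an accessory subunit, measured 8.78, 8.85 and 8.77 in LID and 8.48, 8.66 and 8.68 with vehicle (difference -0.19, interval -0.42 to 0.03, limma adjusted p = 1). The largest difference, -0.25 in the core subunit Ndufs3, came from LID + Vehicle replicate 1 at 6.78, whose companions were at 7.20 and 7.38. That array had 59 of 83 chain genes under their mean, and a projection neuron mean of 9.57 against 10.38 and 10.42 in its group.

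In LID + PD98059 against LID + Vehicle, the effect of MEK inhibition under L-DOPA, the median was -0.02, with 34 genes higher and 49 lower (48.6% of all transcripts above the dim level were higher). No chain gene was higher without overlap (3.7%), and 5 were lower, or 6% (5.21%): Cox5a, Atp5if1, Ndufa12, Ndufaf5 and Ndufa2. Cox5a, a nuclear subunit next to the catalytic core of complex IV, measured 10.63, 10.58 and 10.66 with vehicle and 10.50, 10.54 and 10.38 with PD98059 (difference -0.15, interval -0.36 to 0.06, limma adjusted p = 0.978). A second, dimmer Cox5a transcript differed by -0.30 (limma unadjusted p = 0.0194). Among assembly factors, which build complex I without staying in it, Ndufaf3 was 0.18 higher (interval -0.04 to 0.40), while Ndufaf1 and Ndufaf5 were at -0.20 and -0.19.

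Ndufa4l2, a paralogue of Ndufa4 known as a target of hypoxia signalling, had the smallest p in this comparison among the 83 genes above the dim level. It measured 5.93, 6.42 and 6.14 with vehicle and 6.39, 6.36 and 6.77 with PD98059 (difference 0.34, interval 0.01 to 0.67, limma unadjusted p = 0.0428, adjusted p = 0.966). The groups overlapped. The gene lay not far above the dim level. Its highest array, LID + PD98059 replicate 3, also had the highest pericyte marker mean, 8.30, with the other arrays from 7.50 to 8.20, and PD replicate 1, at 6.71, had the next highest, 8.20. Within the vehicle group the order was not the same: replicate 3, at 6.14, had a pericyte mean of 8.15, and replicate 2, the highest of that group at 6.42, had 7.70. In mouse brain pericytes are known to express this gene. The part of pericytes in the difference was not tested. Ndufa4 itself differed by -0.07 (interval -0.31 to 0.18).

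**Figure D5:**
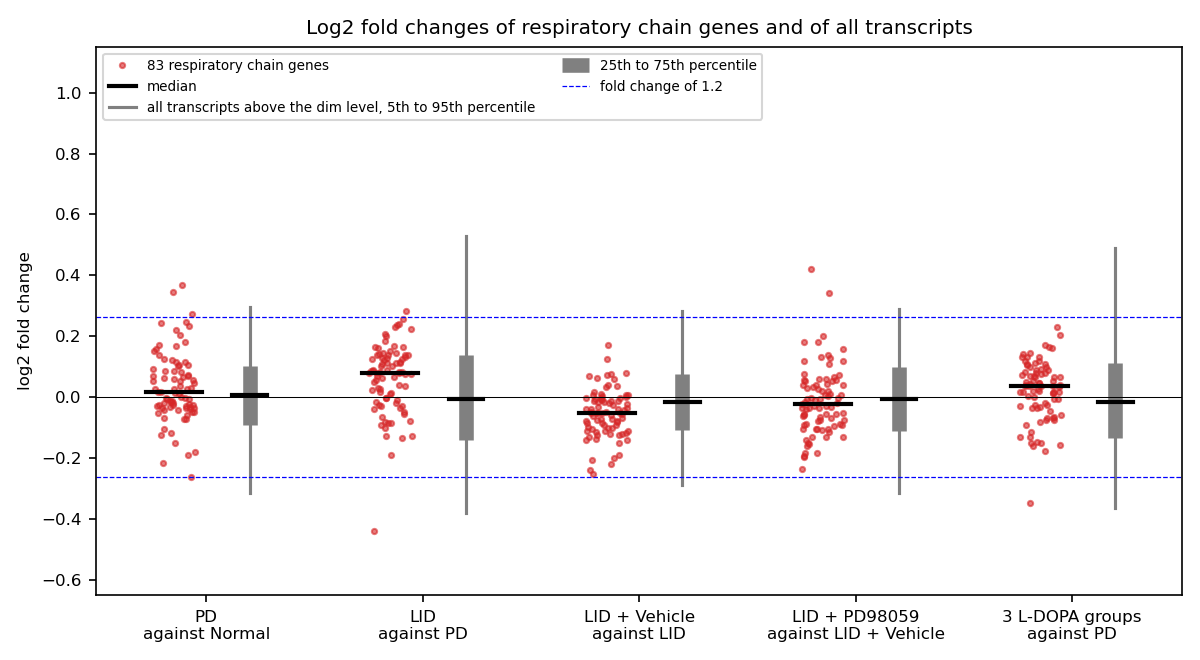
Log2 fold change (y axis) in 5 comparisons (x axis) for the 83 chain genes (red points, black bar at the median) and for all transcripts above the dim level (thin grey line, 5th to 95th percentile; thick grey line, 25th to 75th; black bar, median). Dashed lines mark a fold change of 1.2. The chain medians run from -0.05 in LID + Vehicle against LID to 0.08 in LID against PD, and most points lie inside the dashed lines.

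Several subunits exist as tissue-specific isoforms. The forms common to most tissues, Cox4i1, Cox6a1, Cox6b1 and Cox8a, were above the dim level. The lung form Cox4i2 (mean 5.62), the testis forms Cox6b2 (5.01), Cox7b2 (3.36) and Cox8c (4.31), and Cox8b (4.85), of heart and muscle, were below it in the 15-array mean. Cox6a2, the form of heart and skeletal muscle, lay at 6.15, slightly above. Its highest values were 6.83 in LID + Vehicle replicate 1 and 6.51 in LID replicate 3, and the other 13 arrays lay between 5.90 and 6.25. Skeletal muscle markers on those arrays averaged 5.57, the lowest of all arrays, and 5.77, where all arrays ranged from 5.57 to 6.07.

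Of the 100 genes 17 carry names of extra copies or pseudogenes, 7 of them above the dim level, and probes of such copies can also bind the parent's RNA. Uqcr11l1, one of these names, had the smallest unadjusted p of any chain gene, but its mean was 5.01, under the dim level, so no fold is given. Transcripts of chain genes that carried several symbols were not used. They had 8 distinct symbol entries, among them those of Atp5f1c, Ndufa10 and Cox7a2.

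Among the other genes of the pathway none passed either. Of 13 mitochondrially encoded chain subunits 3 were measured, all of complex IV: COX1 from 13.39 to 13.51, COX2 from 12.32 to 12.63 and COX3 from 13.48 to 13.58. These lie near the highest value on any array, 13.8, and none passed. The largest difference was 0.14 for COX2 in PD against Normal (interval -0.04 to 0.32). Of 32 measured carriers and assembly factors outside the naming rule none passed in any comparison. Cycs, cytochrome c itself, was at 9.80, 9.92 and 9.61 with vehicle and 9.37, 9.39 and 9.62 with PD98059 (difference -0.32, interval -0.68 to 0.05). Atpaf2, an assembly factor of ATP synthase, was lower in LID than in PD without overlap (difference -0.22, interval -0.41 to -0.03, limma adjusted p = 0.516), while ATP synthase genes leaned upward there.

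Of 16 measured regulators of mitochondrial genes none passed. In LID + PD98059 against LID + Vehicle 14 of the 16 were lower, with a median of -0.15. Of all transcripts 53.2%, and of those above the dim level 48.6%, were higher there. In LID + Vehicle against LID 11 of the 16 regulators were higher, with a median of 0.05. Of the 16 regulators 15 lay above the dim level. Tfam, which packages and transcribes mitochondrial DNA, measured 6.93, 7.05 and 6.85 with vehicle and 6.51, 6.73 and 6.48 with PD98059. The groups did not overlap, and the difference was -0.37 (interval -0.58 to -0.16, limma unadjusted p = 0.00195, adjusted p = 0.966). The infused groups lay on opposite sides of LID, whose arrays were at 6.77, 6.77 and 6.74. Polrmt, the mitochondrial RNA polymerase, was 0.27 lower in LID than in PD (difference -0.27, limma adjusted p = 0.472), and Polg, the mitochondrial DNA polymerase, was at 0.25 (limma adjusted p = 0.497), both without overlap. Of 15 measured citric acid cycle and pyruvate dehydrogenase genes none passed, and 13 were lower with PD98059 than with vehicle, with a median of -0.08. Genes of a list can deviate together on an array, so these counts were not tested.

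Some promoters of these genes hold letters that the rule did not use, although most lack each motif searched. NRF1 (nuclear respiratory factor 1) and the ETS factor GABP are known regulators of chain genes. In RefSeq windows from 250 bases before to 50 after the start (GRCr8), 69 of the 83 genes had an entry. The NRF1 core GCATGCG was in 10 of them (14.5%) and in 3.54% of all 27457 promoters, and TGCGCA, which flanks that core in a full site, in 20 (29%) against 7.68%. The ETS letters CCGGAAG were in 21 (30.4%) against 9.22%, the YY1 letters AAGATGG in 19 (27.5%) against 7.3%, and the GC box GGGCGG in 28 (40.6%) against 34.9%. Both strands were searched, and the first 2 motifs can overlap by a few letters. The 27457 promoters were not limited to genes above the dim level, as the 69 were, so the shares are not set against other expressed genes. The motif letters were also shortened after match shares of longer forms had been seen. These matches describe the sequence and not binding. The stretches around the NRF1 core are shown for a gene each of complexes I, II, III and ATP synthase, to make those letters visible. Only the first core match of a stretch, on either strand, is in capitals, and overlapping or further matches are not marked:
Ndufa11, chr9:1637493-1637549, plus strand: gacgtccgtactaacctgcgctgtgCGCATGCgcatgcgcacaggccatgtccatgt
Sdhb, chr5:158547742-158547798, plus strand: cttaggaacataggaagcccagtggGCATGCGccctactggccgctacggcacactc
Uqcrc1, chr8:118468160-118468216, plus strand: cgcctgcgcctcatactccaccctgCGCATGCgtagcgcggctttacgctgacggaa
Atp5po, chr11:44657510-44657566, minus strand: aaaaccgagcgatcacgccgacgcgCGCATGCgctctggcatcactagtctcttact
In LID against PD, Sdhb, the iron-sulfur subunit of succinate dehydrogenase, differed by 0.13 (interval -0.13 to 0.38), and Atp5po, the stalk subunit that confers oligomycin sensitivity, by 0.13 without overlap. Uqcrc1, a core protein of complex III, measured 8.70, 8.80 and 8.90 in PD and 8.68, 8.80 and 8.82 in LID, with overlap.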

How the data were processed

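The authors hybridised total striatal RNA to Affymetrix rat arrays, 1 rat for each of 15 arrays, and made log2 values with Affymetrix Expression Console and RMA (background adjustment, normalisation, and a median over the probes of a transcript), per the labels and the study's methods. The methods also name an exon level option, so whether each row summarises a whole transcript is not settled. Rows are called transcripts here. The versions used are not given in the sources used here. The deposited log2 values of 36685 transcripts were used as they were. Gene names came from the platform annotation: 18511 transcripts had 1 symbol, 575 several and 17599 none. Array medians ran from 5.56 to 5.65. Sequencing depth does not apply, and the number of arrays limits the precision.

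limma 3.58.1 (lmFit and eBayes, R 4.3.3) was fitted to all transcripts and 15 arrays with 1 mean per group, and two-sided p-values were adjusted by Benjamini-Hochberg across these 36685. The joined comparison set the equally weighted mean of the 3 L-DOPA groups less PD, and shares arrays with the others. The others also share groups: PD, LID and LID + Vehicle each stand in more than 1 of them. Exact permutation of 3 arrays against 3 cannot go below p = 0.1, so none was used. The script was checked on simulated data, and that check did not require shifts as small as the differences given here to be called. Named genes were, per comparison, up to 10 higher and 10 lower genes, brighter than the dim level, by unadjusted p, core subunits, isoform families, the extremes of spread, and up to 3 genes of each other list. The Cox5a and Cox6b1 second transcripts, Uqcr11l1 and genes without overlap were named after their values were seen. The members and lists were chosen with earlier results of these data known. The promoter motifs were shortened to their present letters after match shares of longer forms had been seen. Which of these genes the text gives was settled with their values and alternatives known. Alternatives changed the moderation, the arrays fitted, the replicate number as a block, dim transcripts, centring, the transcript per symbol, array weights and single arrays.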

Additional observations from a re-analysis of the deposited data

How the results depend on the processing

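No chain gene passed at the adjusted p under any alternative, with or without the fold threshold, and over the 33 gene results given in the text the lowest adjusted p under an alternative was 0.193. Uqcr11l1, under the dim level and not among these 33, had 0.146 in the joined comparison. The median log2 fold change over the 100 genes kept within the replicate spread, from 0.04 to 0.11 in LID against PD and from -0.08 to -0.02 in LID + Vehicle against LID. It crossed 0 in PD against Normal (-0.01 to 0.06), in LID + PD98059 against LID + Vehicle (-0.06 to 0.02, above 0 without LID + PD98059 replicate 2 or LID + Vehicle replicate 3) and in the joined comparison (-0.01 to 0.04, below 0 without PD replicate 1). The group means of the chain moved by less than the spread when arrays were centred on their medians. A dim level at the 90th percentile was 5.36, with 86 genes above it.

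Counts past the unadjusted p and fold were small and moved often, and the cause was not tested unless the setting itself gives it. They were 1 in PD against Normal, 3 in LID against PD, 1 in LID + Vehicle against LID, 2 in LID + PD98059 against LID + Vehicle and 1 in the joined comparison. Fitting only the groups compared gave 2, 1 and 0 for PD against Normal, LID against PD and LID + PD98059 against LID + Vehicle. Leaving out dim transcripts, at either percentile, gave 0, 1, 0, 1 and 0 in the 5 comparisons in that order, since fewer genes were counted. Centring gave 5 for LID against PD and 1 for LID + PD98059 against LID + Vehicle. Array weights gave 5, 2, 1 and 2 in the last 4 comparisons. Without the fold threshold the counts were 4, 6 and 4 for PD against Normal, LID against PD and the joined comparison. Leaving out single arrays gave 1 to 6, 1 to 8, 1 to 3, 0 to 3 and 1 to 3.

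With the replicate number as a block the counts were 1 for LID against PD and 1 for LID + PD98059 against LID + Vehicle, and no other call changed. The numbers are not known to pair rats: deviations of same-numbered arrays correlated from -0.497 to 0.381, above 0.1 in 3 of 12 pairs, and 3 of 12 arrays correlated best with their own number.

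Of 480 alternative values of 33 named gene results, 1 turned direction: Cox6b1 in PD against Normal was -0.031 with the median of its transcripts, of which the second lies under the dim level. Over all 100 gene results that the smallest p-values put forward, 20 a comparison and most not given in the text, 13 of 1520 alternative values turned direction, in 11 results, and none passed the adjusted p.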
